A study of Mus musculus with 18 samples.

Results

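The fraction of testicular germ cells labelled plpSC, taken at postnatal day 14, was compared with the fraction labelled priSG-B, taken at day 9, over noncoding loci of the mouse. The members of the comparison were the 1446 loci, of 13218 in the deposited table, with at least 1 FPKM in at least 3 of the 6 libraries. FPKM counts sequenced fragments relative to transcript length and to the depth of the library. The study separated 6 kinds of germ cell from the testes of male ICR mice, an outbred stock, by STA-PUT velocity sedimentation, which sorts cells largely by size. Total RNA of each fraction was sequenced from Illumina TruSeq libraries of a kit that does not mark the strand. plpSC (day 14) and priSG-B (day 9) had 3 libraries each, as did the types taken at day 6 (priSG-A), day 21 (pacSC), day 35 (rST) and day 56 (elST). Neither group carries a genotype, allele or treatment in its labels, and the 2 groups differ in age as well as in cell type. The names are not written out there either: SG and SC are the usual short forms of spermatogonia and spermatocytes. A size fraction can hold other cells of like size. The design text of the series speaks of sequencing in duplicate, whereas the labels number 3 libraries a type, and all 3 were used here. Nothing in the labels ties the 3 libraries of a type to separate mice or sorts, so the p-values reflect a spread between libraries that may be technical.

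In the first wave of spermatogenesis in the mouse, spermatogonia multiply by mitosis and then, under retinoic acid and the factor STRA8, enter meiosis as spermatocytes, and spermatids form only later. Long noncoding RNAs are transcribed throughout, many of them antisense to coding genes, inside them, or from the same promoters. Among the well studied ones are the host transcripts that carry small nucleolar RNAs or microRNAs in their introns, the imprinted RNAs that are made from 1 parental chromosome, and the RNAs of the X-inactivation centre.

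Promoter sequences are shown for 3 members that differ between the fractions and hold a motif searched for. Ftx and Gm38973 were lower in plpSC, and Meg3 was higher in plpSC replicates 1 and 2. Each run covers 250 bases before to 50 bases after the start given by RefSeq (GRCm38.p6), 5′ to 3′ on the gene's strand. The windows lie at chrX:103623705-103624004 (minus strand), chr7:27654183-27654482 (minus strand) and chr12:109540746-109541045 (plus strand), in the order of the lines. The RefSeq start of Gm38973 lies 3173 bases upstream of the start of the locus as measured here, and those of Ftx and Meg3 lie within 36 bases of it. Capitals mark CNCCTCAG, described for STRA8, on either strand in the first and second run, and TGACGTCA, the cAMP response element, in the third.
Ftx promoter: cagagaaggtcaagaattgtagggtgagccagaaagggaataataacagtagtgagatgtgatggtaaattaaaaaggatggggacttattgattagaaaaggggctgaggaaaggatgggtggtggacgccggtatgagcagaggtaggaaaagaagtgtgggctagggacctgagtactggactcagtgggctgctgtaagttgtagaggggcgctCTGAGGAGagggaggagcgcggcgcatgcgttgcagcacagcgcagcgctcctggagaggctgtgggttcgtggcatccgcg
Gm38973 promoter: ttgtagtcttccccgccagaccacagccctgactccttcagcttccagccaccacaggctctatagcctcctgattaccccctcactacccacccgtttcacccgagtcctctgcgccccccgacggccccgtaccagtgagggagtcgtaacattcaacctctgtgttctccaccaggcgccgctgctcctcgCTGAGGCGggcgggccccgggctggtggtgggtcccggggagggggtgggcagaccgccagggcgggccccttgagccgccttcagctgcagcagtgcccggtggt
Meg3 promoter: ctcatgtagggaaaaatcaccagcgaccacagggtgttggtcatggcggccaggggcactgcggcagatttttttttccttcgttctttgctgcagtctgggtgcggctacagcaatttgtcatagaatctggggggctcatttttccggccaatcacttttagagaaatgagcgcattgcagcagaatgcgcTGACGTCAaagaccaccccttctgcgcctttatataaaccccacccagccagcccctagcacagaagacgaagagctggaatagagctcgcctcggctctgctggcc

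RefSeq held a promoter for 397 of the 1446 members, with a start within 500 bases of the measured one in 304. CNCCTCAG or its complement stood in 7.97% of all 27025 promoters and in 11.08% of the 397. It stood in 4 of the 14 promoters of loci lower in plpSC over all 18 libraries (28.57%), and in 6 of 61 (9.836%) and 1 of 22 (4.545%) of those lower and higher in plpSC replicates 1 and 2. TGACGTCA, which is its own complement, stood in 1.876% of all promoters, 3.526% of the members' promoters, and in 4 of the 61 and 3 of the 22. CAGTTG, a core bound by MYB factors, was found on either strand in 13.62% of all promoters and 9.32% of the members'. These matches describe letters in the windows, 14 and 22 promoters are few, and no test was made.

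Some member loci with a difference carry microRNAs in their transcripts, so the mature sequences are shown with the seed, bases 2 to 8, in capitals. They are RefSeq entries of GRCm38.p6, written 5′ to 3′. Mir99ahg carries the first 3, Mir9-3hg the fourth, Dleu2 the next 2 and Ftx the last 2. The 2 microRNAs of Dleu2 share the seed AGCAGCA.
miR-99a-5p: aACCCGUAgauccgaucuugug
let-7c-5p: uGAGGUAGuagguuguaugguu
miR-125b-5p: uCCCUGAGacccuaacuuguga
miR-9-5p: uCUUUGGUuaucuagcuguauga
miR-15a-5p: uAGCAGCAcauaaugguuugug
miR-16-5p: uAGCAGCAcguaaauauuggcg
miR-374b-5p: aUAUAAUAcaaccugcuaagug
miR-421-5p: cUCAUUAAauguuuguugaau

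The 3 plpSC libraries were not alike, and the library labelled plpSC replicate 3 stood apart from the other two. Over the 1446 members, on the log2(FPKM + 1) scale, Pearson's r was 0.91 between plpSC replicates 1 and 2, and 0.53 and 0.54 between replicate 3 and each of them. The 3 priSG-B libraries correlated with each other at 0.97 to 0.99. Against priSG-B, r was 0.63 to 0.66 for plpSC replicate 1, 0.74 to 0.76 for replicate 2 and 0.40 for replicate 3. Among all 17 other libraries, replicate 1 was closest to priSG-A replicate 1 (r = 0.96), replicate 2 to priSG-A replicate 2 (0.97) and replicate 3 to elST replicate 2 (0.96). Replicates 1 and 2 were also near rST replicate 1 (0.90 and 0.93) and elST replicate 1 (0.89 and 0.94), while their r with the other rST and elST libraries was 0.46 to 0.54. Replicate 3 reached 0.95 with pacSC replicate 3 and 0.94 with rST replicate 2. The coefficients describe loci that share their annotation and, within a library, its depth. Thus, over the members, replicate 2 was nearer to single libraries of day 6, day 35 and day 56 than to replicate 1. Replicate 3 was nearer to a day 56 library than to any other plpSC library. The members were chosen on these 6 libraries, which leaves out loci high in replicate 3 alone. Over the 4117 loci with at least 1 FPKM in at least 3 of the 18 libraries, replicate 3 reached only 0.07 and 0.08 with replicates 1 and 2. There it reached 0.04 to 0.07 with priSG-B. Replicates 1 and 2 stood at 0.933 there, above rST and elST replicate 1 (0.920 and 0.931 with replicate 2). Libraries of 1 labelled type lay apart in other types too, and whether labels were exchanged was not tested, so each plpSC value is that of the library so labelled.

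**Figure D1:**
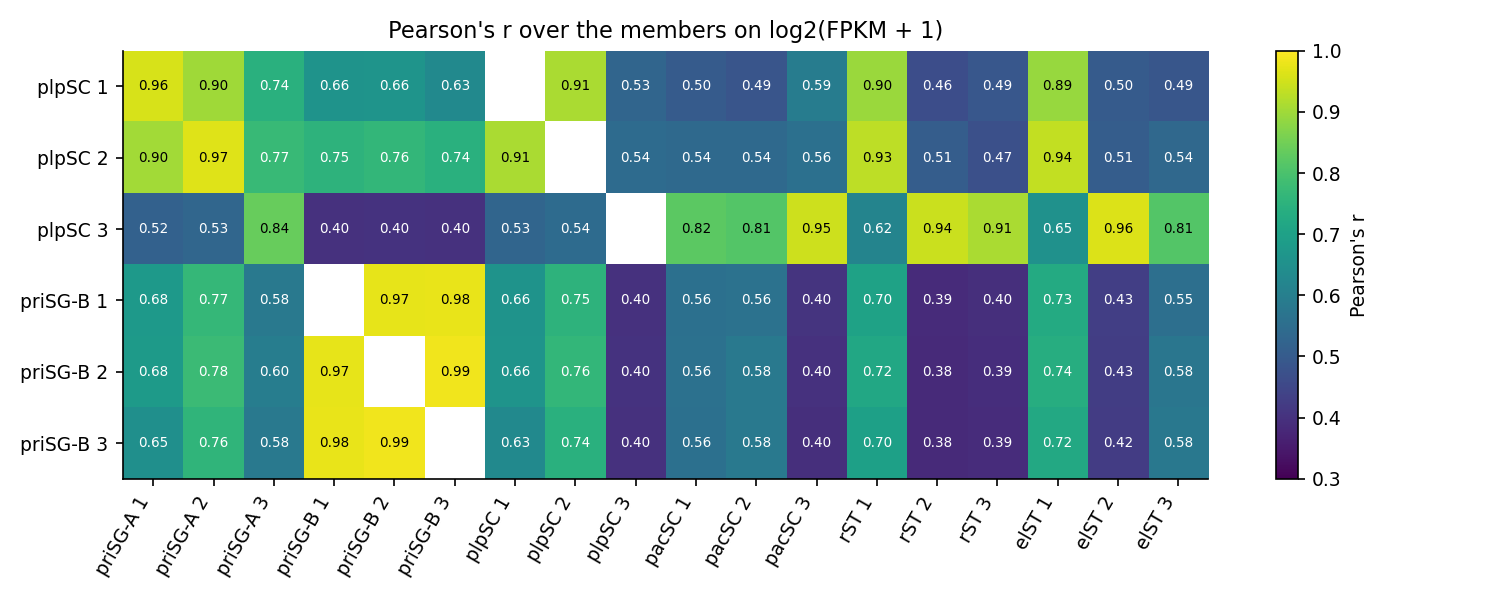
Pearson's r on log2(FPKM + 1) over the 1446 members, for each plpSC and priSG-B library (rows) against all 18 libraries (columns, by age). plpSC replicates 1 and 2 reach 0.96 and 0.97 with priSG-A replicates 1 and 2, plpSC replicate 3 reaches 0.96 with elST replicate 2, and the priSG-B libraries reach 0.97 to 0.99 among themselves.

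The depth inferred from the steps between low FPKM values was 34.8, 47.4 and 86.2 M (mega) fragments in plpSC replicates 1 to 3, against 72.7, 92.2 and 84.7 M in priSG-B. The table analysed here holds noncoding loci, and coding markers of spermatogonia, spermatocytes, Sertoli or Leydig cells were not used here, so the labels could not be checked against them. Of 6 spermatid markers, 1 could be read: 1700027A15Rik (chr1:72984844-73025507), whose exons overlap those of Tnp1, the transition protein of spermatid chromatin, on the other strand. It was listed at 0, 0 and 874 FPKM in plpSC, against 0.0708, 0.0549 and 0.0593 FPKM in priSG-B. It is high in replicate 3 and near 0 in the other 5 libraries, and its reads cannot be told apart from those of Tnp1. In the wider series elST replicate 2 held 875 FPKM of it but elST replicate 1 only 0.570 FPKM. In rST, replicate 2 held 4539 FPKM while replicate 1 was listed at 0, and priSG-A replicate 3 held 11.8 FPKM. The locus thus goes against the labels in plpSC replicate 3 and in libraries of other types, and the main counts are given with and without that plpSC library. Carmn, a smooth muscle RNA that marks peritubular cells, was at 3.39, 2.36 and 0.215 FPKM in plpSC against 0.740, 0.777 and 0.658 FPKM in priSG-B. The 7 somatic noncoding markers summed to 46.6, 57.3 and 25.0 FPKM in plpSC and to 55.7, 54.3 and 55.8 FPKM in priSG-B, with none at 0. Of these sums, Mir99ahg alone held 8.59, 6.64 and 19.04 FPKM in plpSC and 3.01, 2.67 and 2.499 FPKM in priSG-B. It thus made up most of the sum in replicate 3. Mir142hg and Mir155hg, of blood cells, summed to 0.0220 to 0.850 FPKM in plpSC and 0.159 to 1.25 FPKM in priSG-B, with 1 of the 2 at 0 in plpSC replicate 3 and in priSG-B replicate 2. The part of other cells in the differences was not tested, and in such bulk fractions fewer cells of a type and less RNA per cell cannot be told apart.

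At 1 FPKM or more, plpSC libraries held 1546, 1559 and 2802 loci of the whole table, against 1382, 1428 and 1342 in priSG-B. Replicate 3 held by far the most. The means, 1969 for plpSC and 1384 for priSG-B, differed by 585 loci (exact permutation test over the 6 libraries, two-sided, p = 0.1, the smallest that 3 against 3 can give). Without replicate 3 the plpSC mean was 1552.5 and the difference 168.5 (exact p = 0.2, the smallest that 2 against 3 can give). At 5 FPKM, plpSC held 341, 358 and 1270 loci, against 385, 385 and 377 in priSG-B, so that replicates 1 and 2 lay below every priSG-B library and replicate 3 above. Of the members, plpSC had 1117, 1236 and 774 at 1 FPKM or more, against 1312, 1350 and 1269 in priSG-B, so that replicate 3 held the fewest members and the most loci. Only 43.8% of the members were at 1 FPKM in all 3 plpSC libraries, whereas 84.5% were in all 3 priSG-B libraries. A further 1936 loci, all outside the members, reached 1 FPKM in replicate 3 alone of the 6 libraries, and 190 in replicates 1 and 2 alone. At the limit of the rule, the third-highest value was 1.00021 FPKM for Gm37309 and 1.00059 FPKM for Gm12204, just inside, and 0.999122 FPKM for Gm43378 and 0.998213 FPKM for Gm28192, just outside. By GENCODE type, 433 members were antisense, 399 TEC (a type for transcripts still awaiting experimental proof), 278 lincRNA, 211 processed transcripts, 54 bidirectional-promoter and 42 sense-intronic.

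With all 3 plpSC libraries, 51 members were lower in plpSC and 1, Rmrp, was higher (limma on log2(FPKM + 1) over all 18 libraries, Benjamini-Hochberg adjusted p under 0.05 over 4117 loci). That is 3.53% of the members for the lower loci, beside 1.24% of all loci tested, and the single higher locus is 0.0243% of those tested. With a pseudocount of 0.1 in place of 1, 1 lower locus, Gm38099, and Rmrp were left. No locus outside the members was called. At an unadjusted p under 0.05 in limma there were 290 members (20.1%, beside 7.65% of the loci tested). With the 6 libraries alone and without replicate 3, 193 members were lower in plpSC (13.3%, beside 5.78% of the loci tested) and 145 were higher (10.03%, beside 7.46% of the loci tested). Of the 51 lower loci, 42 were lower in this 5-library comparison too. Loci tested outside the members were, by the rule, low in most of the 6 libraries, which bears on the background shares. The counts depended on single libraries. The 51 became 20 without plpSC replicate 1, 22 without replicate 3, and 24, 23 and 21 without priSG-B replicates 1, 2 and 3. The 193 lower and 145 higher became 29 and 18 without priSG-B replicate 1, and 0 and 0 without priSG-B replicate 2 or replicate 3, with 82 and 116 members at an unadjusted p under 0.05 in limma. They became 0 and 2 without plpSC replicate 1 or replicate 2, where the lone plpSC library is assumed to vary like priSG-B (315 and 585 members at an unadjusted p under 0.05).

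The priSG-B libraries also differed from all plpSC libraries in a locus derived from ribosomal RNA, AY036118, and shared this with pacSC replicates 1 and 2 and elST replicate 3. All 6 of these libraries were under 100 FPKM for it and the other 12 of the series were over. No set holds both plpSC and priSG-B, so a within-set value could not be had and this split and the cell type cannot be told apart within these 6 libraries. With the set as a term in limma, estimated from pacSC and elST, 15 loci were lower in plpSC and 3 higher. Those libraries also differed within their label. 1700027A15Rik was at 75.8, 84.9 and 1195 FPKM in pacSC replicates 1 to 3, and at 0.570, 875 and 73.0 FPKM in elST. The term therefore cannot be told apart from such differences within a label.

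The loci lower in plpSC were of several kinds. Of the 51, 16 were lincRNA, 14 antisense, 13 TEC, 5 processed transcripts, 2 sense-intronic and 1 bidirectional. In the same order, these types held 278, 433, 399, 211, 42 and 54 of the 1446 members. No coding gene overlapped 29 of the 51, beside 469 of the 1446 members. An exon was shared with a coding gene on the other strand in 11, beside 576 of the members. In a coding gene on the same strand lay 9, of which 8 shared no exon with it, beside 223 of the members. In all 51 the 3 plpSC libraries lay below the 3 priSG-B libraries, beside 28.2% of all members and 10.9% of the loci tested. In 33 (64.7%) all plpSC libraries were under 1 FPKM, beside 7.88% of all members. In 42 (82.4%) replicate 3 was the lowest of the 6, beside 53.9% of all members and 27.01% of the loci tested. The 51 were called for being lower in these same libraries, so these shares add no support to the calls.

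Gm48610 (chr12:4572401-4576756), a lincRNA away from coding genes, had 4.49, 7.59 and 1.14 FPKM in plpSC, against 152, 149 and 178 FPKM in priSG-B. The groups were far apart, with replicate 3 lowest. The difference on the log2(FPKM + 1) scale was -5.10 ± 0.96 (SE), with an adjusted p of 0.0145 (limma, 18 libraries), and -4.54 ± 0.25 without replicate 3. Gm45184 (chr7:127434422-127439392), another intergenic RNA, had 2.63, 3.66 and 0.535 FPKM in plpSC, against 45.4, 41.5 and 52.4 FPKM in priSG-B (difference -4.00 ± 0.82, adjusted p = 0.0237). Gm43461 (chr5:147427738-147428733) had 2.18, 3.29 and 0.502 FPKM in plpSC, against 38.7, 36.2 and 44.2 FPKM in priSG-B (-3.89 ± 0.77, adjusted p = 0.0201). In both, replicates 1 and 2 kept a few FPKM and replicate 3 less than 1. None of these 3 calls held with the library-set term, where the differences were -2.41, -2.15 and -2.20 (limma adjusted p = 0.303, 0.375 and 0.301), or with a pseudocount of 0.1 (adjusted p = 0.0776, 0.126 and 0.124). Without any 1 of plpSC replicates 1 and 3 and the 3 priSG-B libraries the calls ended too, with limma adjusted p of 0.068 to 0.0993 for Gm48610, 0.0915 to 0.135 for Gm45184 and 0.0745 to 0.106 for Gm43461.

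Antisense and intronic loci showed the same order. Gm12953 (chr4:116551740-116552627) shares an exon with Tmem69 on the other strand and had 2.61, 2.85 and 0.407 FPKM in plpSC, against 44.2, 38.9 and 50.5 FPKM in priSG-B (-4.07 ± 0.85, limma adjusted p = 0.0248). The groups did not overlap, and since the libraries carry no strand, reads of this locus and of its partner cannot be told apart. Gm37214 (chr1:183420655-183422213), in an intron of Hhipl2 on the same strand, had 0.423, 1.00 and 0.0657 FPKM in plpSC, against 21.8, 21.9 and 25.4 FPKM in priSG-B (-4.05 ± 0.58, adjusted p = 0.00129). Gm42687 (chr3:115910370-115910533), an entry of 164 bp inside Dph5, was listed at 0 in all 3 plpSC libraries, against 39.3, 94.8 and 136 FPKM in priSG-B (limma adjusted p = 0.041). It is shorter than the inferred fragments, which measured 203 to 211 bp in plpSC and 234 to 239 bp in priSG-B. With the library-set term the differences of Gm12953, Gm37214 and Gm42687 were -1.99, -2.60 and -2.64, and none passed (limma adjusted p = 0.416, 0.0636 and 0.583). None passed with a pseudocount of 0.1 either (adjusted p = 0.261, 0.0904 and 0.101). The call of Gm12953 ended without plpSC replicate 1 or 3 or any priSG-B library (limma adjusted p 0.0909 to 0.145), and that of Gm42687 without any 1 of the 6 libraries (0.0827 to 0.183).

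The members under 240 bp of exon, 20 in all, had a median log2 difference of -1.95, with 7 lower and 1 higher in plpSC replicates 1 and 2 (limma, 5 libraries). That is 35% lower, beside 13.3% of all members and 5.78% of the loci tested, and the median over all members was -0.18. The difference in fragment length runs with the groups, and its part in the values of short loci was not tested. Gm43535 (chr9:110974432-110974595), also of 164 bp, had 14.1, 7.15 and 5.83 FPKM in plpSC, against 157, 190 and 227 FPKM in priSG-B. It passed in the 5-library comparison (-4.10 ± 0.36, limma adjusted p = 0.0194) and not over 18 libraries (adjusted p = 0.52). With the library-set term its difference went from -4.33 to -0.43 (limma adjusted p = 0.988). Gm47551 (chr13:98801172-98803736), 165 bp of exon antisense to Fcho2, had 12.6, 171 and 0 FPKM in plpSC, against 11595, 7654 and 11389.7 FPKM in priSG-B. It was the most abundant member in priSG-B among those named here, and it did not pass over 18 libraries (-9.56 ± 2.44, limma adjusted p = 0.0828).

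**Figure D2:**
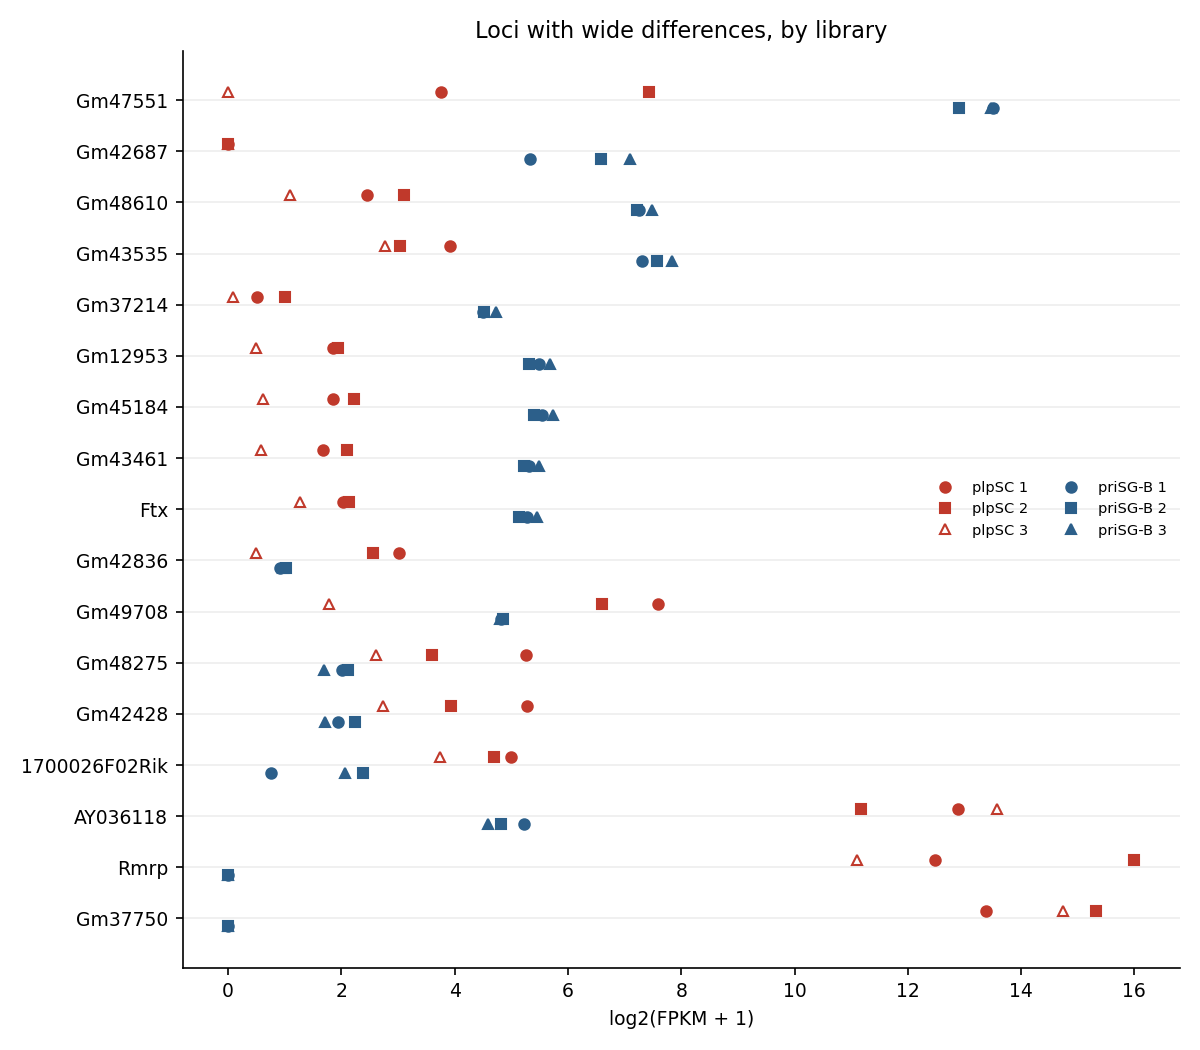
Log2(FPKM + 1) per library for named loci with wide differences, with plpSC in red (replicate 3 as open triangles) and priSG-B in blue, on a log axis. From Gm47551 down to Ftx every plpSC point lies left of the priSG-B points, whereas for Gm42836 and Gm49708, replicates 1 and 2 lie right of priSG-B and replicate 3 left of it.

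Several loci that were lower with small spread on the log2(FPKM + 1) scale were named after their values were seen. BC051077 (chr5:117312518-117315645) had 0.421, 0.682 and 0.225 FPKM in plpSC, against 9.11, 8.05 and 9.39 FPKM in priSG-B (-2.78 ± 0.32, limma adjusted p = 0.000345). Gm38099 (chr17:31532291-31535460) had 0.0872, 0.102 and 0.0732 FPKM in plpSC, against 3.93, 3.51 and 4.55 FPKM in priSG-B (-2.20 ± 0.23, adjusted p = 0.000345). Of the 4 loci named so, it was the one in which all 3 plpSC libraries lay closest together. Gm38973 (chr7:27649426-27651059), downstream of the window printed above, had 0.298, 0.493 and 0.0347 FPKM in plpSC, against 5.19, 5.39 and 5.87 FPKM in priSG-B (-2.36 ± 0.27, adjusted p = 0.000345). Gm15541 (chr7:27502718-27508122), on the same chromosome and antisense to Prx, had 0.246, 0.519 and 0.0587 FPKM in plpSC, against 5.03, 4.78 and 6.04 FPKM in priSG-B (-2.31 ± 0.27, adjusted p = 0.000345). All 4 loci were under 1 FPKM in every plpSC library, where the log2(FPKM + 1) scale flattens differences between libraries. With a pseudocount of 0.1, Gm38099 passed (limma adjusted p = 0.0432), and BC051077, Gm38973 and Gm15541 did not (0.07, 0.0892 and 0.0856).

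The distribution as a whole was shifted little in replicates 1 and 2 and more in replicate 3. The median log2 difference over the members was -0.18 in the 18-library fit, -0.08 for replicates 1 and 2 and -0.70 for replicate 3. Over all 4117 loci tested it was 0.42, 0 and 0.98 for the same 3 measures. Members therefore lay below the loci tested in each, most widely for replicate 3, and the rule, which 84.5% of members met through all 3 priSG-B libraries, bears on this. Scaling moved replicate 3 most: over all loci tested its median was 0.02 after quantile normalization and -0.21 after median centring, and over the members -1.78 and -1.89. The members' median for replicates 1 and 2 was then -0.11 and -0.09. The 223 members inside a coding gene on the same strand, without a shared exon, had medians of 0.32 in replicates 1 and 2 and -0.98 in replicate 3, with 18 lower and 37 higher in the 5-library limma comparison. The 576 that share an exon with a coding gene on the other strand had medians of -0.27 and -0.54, with 80 lower and 43 higher. The 469 without coding overlap had medians of -0.11 and -0.70, with 78 lower and 48 higher. Of 54 bidirectional-promoter RNAs, 12 were lower (22.2%) and 1 higher (1.85%), and of 399 TEC entries 42 were lower (10.5%) and 55 higher (13.8%). Over all members these shares were 13.3% and 10.03%, and over the loci tested 5.78% and 7.46%.

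Without regard to a test, the 3 plpSC libraries lay below the 3 priSG-B libraries in 408 members (28.2%, beside 10.9% of the loci tested) and above in 208 (14.4%, beside 12.5%). plpSC replicates 1 and 2 lay below priSG-B in 564 members (39.0%, beside 21.2% of the loci tested) and above in 463 (32.0%, beside 25.2%). Of the 564, replicate 3 was below priSG-B in 408 (72.3%), above in 132 and within its range in 24. Of the 463, it was above in 208 (44.9%), below in 237 (51.2%) and within in 18. Over all members it was below priSG-B in 63.4% and above in 32.1%, and over the loci tested in 30.97% and 65.1%. Replicate 3 thus shared the direction of replicates 1 and 2 more often than the shares over all members, both for lower and for higher members. The same held for the loci that passed in the 5-library comparison. Both directions were taken against the same 3 priSG-B libraries, which by itself raises such sharing. The sharing is therefore no independent sign that the plpSC libraries are alike. Of the 193 lower loci, replicate 3 was below priSG-B in 155 and above in 36. Of the 145 higher loci, it was above in 69 and below in 71.

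**Figure D3:**
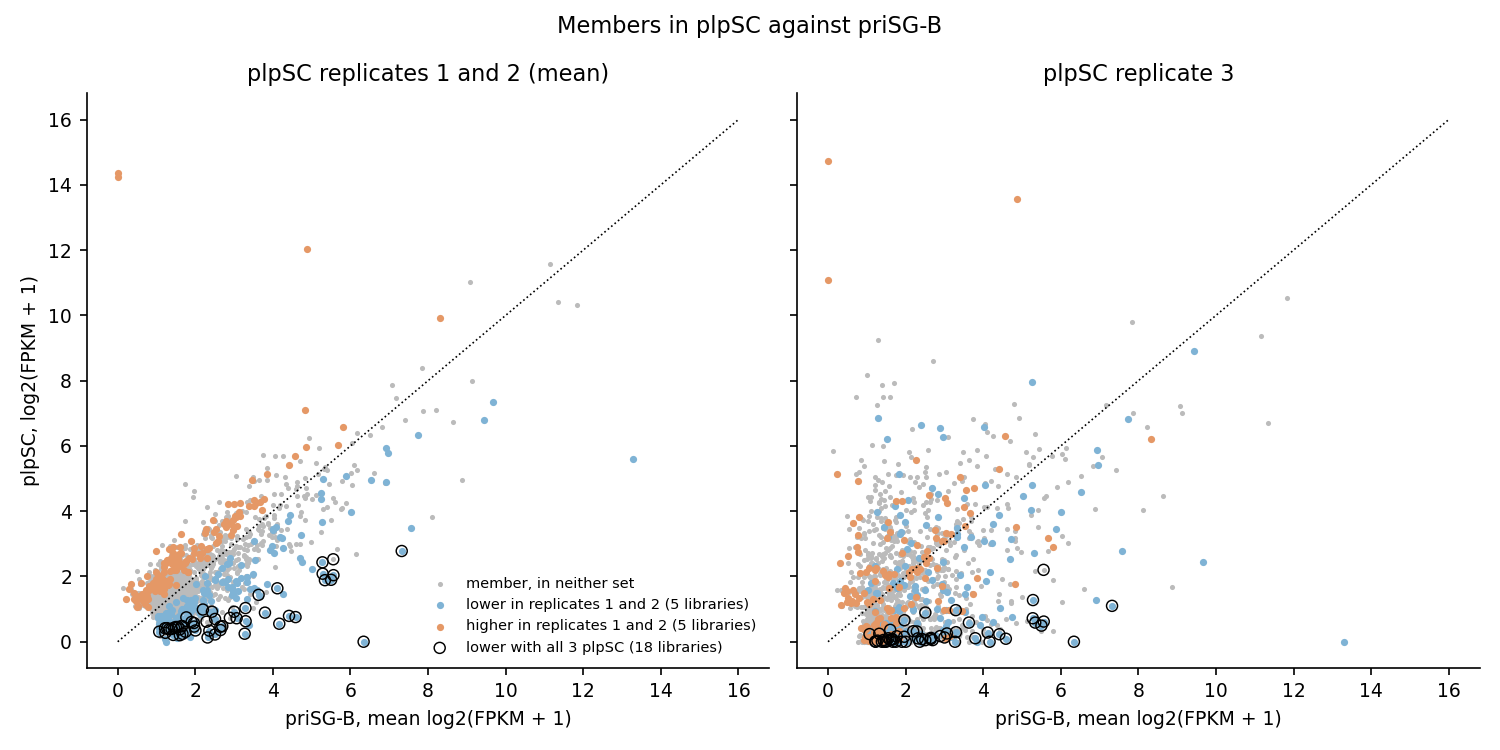
Each of the 1446 members by its level in plpSC (vertical, log2(FPKM + 1)) against its mean in priSG-B (horizontal), for plpSC replicates 1 and 2 on the left and replicate 3 on the right, with the dotted line at equal levels and black circles around the 51 loci lower over 18 libraries. The 193 lower (blue) and 145 higher (orange) loci of the 5-library comparison separate on the left, while on the right 71 of the orange points lie below priSG-B.

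Loci higher in plpSC were fewer with all 3 libraries and included very abundant short RNAs. Rmrp (chr4:43492783-43493063), the RNA of RNase MRP that cleaves ribosomal RNA precursors, had 5695, 65601 and 2188 FPKM in plpSC and was listed at 0 in all 3 priSG-B libraries (limma adjusted p = 0.0025 over 18 libraries). The cause of the listed zeros was not tested, and no fold is given. In the wider series, pacSC replicates 1 and 2 and elST replicate 3 held 51841, 66814 and 55398 FPKM of it. Like priSG-B, these libraries were under 100 FPKM for AY036118. Its exon of 281 bp shares bases with Ccdc107 on the other strand. Gm37750 (chr9:104053327-104053455), an entry of 129 bp, had 10685, 40853 and 27206 FPKM in plpSC and was likewise listed at 0 in all priSG-B libraries. It passed in the 5-library comparison (limma adjusted p = 0.00868) and not over 18 libraries (adjusted p = 0.233). With the library-set term its difference went from 14.5 to 3.22 (limma adjusted p = 0.945). Terc (chr3:96414437-96414833), the template RNA of telomerase, ran the other way, with 8.83, 97.8 and 2.23 FPKM in plpSC, against 491, 391.98 and 524 FPKM in priSG-B. Its groups did not overlap, and it passed in neither comparison (-4.99 ± 1.70, limma adjusted p = 0.293).

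The 3 loci derived from ribosomal RNA lie together at chr17:39843013-39848788. AY036118 had 7526, 2307 and 12221 FPKM in plpSC, against 36.2, 27.2 and 23.0 FPKM in priSG-B, and the groups were widely apart. It passed in the 5-library comparison (7.15 ± 0.64, limma adjusted p = 0.0195) and not over 18 libraries (7.67 ± 2.42, adjusted p = 0.223). Gm42418, which overlaps it, had 331, 342 and 884 FPKM in plpSC, against 256, 237 and 199 FPKM in priSG-B, and did not pass. Gm26917 had 753, 2449 and 103 FPKM in plpSC, against 2746, 2520 and 2577 FPKM in priSG-B, and did not pass either. AY036118 and Gm42418 were thus above priSG-B in every plpSC library and Gm26917 was below it. The library sets were defined by AY036118, so the set term could not be used for it.

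Among the 463 members that stood higher in replicates 1 and 2, replicate 3 stood below priSG-B in 51.2%, beside 63.4% of all members. Gm49708 (chr16:90341595-90349642) had 191, 96.6 and 2.43 FPKM in plpSC, against 27.3, 28.1 and 26.7 FPKM in priSG-B. It was higher in the 5-library comparison (2.27 ± 0.34, limma adjusted p = 0.0411), and its difference over 18 libraries, 0.50 ± 1.49, turned to -0.63 without plpSC replicate 1 and to -0.15 without replicate 2. Gm42836 (chr3:122426443-122459060), antisense to Bcar3, had 7.05, 4.87 and 0.403 FPKM in plpSC, against 0.898, 1.03 and 0.966 FPKM in priSG-B (5 libraries, 1.81 ± 0.16, limma adjusted p = 0.0197). E230016M11Rik (chr6:67036599-67080654), named after its values were seen, shares an exon with Gadd45a, a stress-response gene, on the other strand. It had 6.01, 6.25 and 0.238 FPKM in plpSC, against 1.63, 1.54 and 1.32 FPKM in priSG-B (5 libraries, 1.52 ± 0.07, limma adjusted p = 0.00801). In all 3 loci, replicates 1 and 2 lay above the priSG-B range and replicate 3 below it.

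Other loci were above priSG-B in all 3 plpSC libraries. 1700026F02Rik (chr8:70948246-71085758) had 30.7, 25.0 and 12.4 FPKM in plpSC, against 0.692, 4.21 and 3.19 FPKM in priSG-B, and did not pass (2.74 ± 0.67, limma adjusted p = 0.0671). Gm42428 (chr5:44136620-44136921) had 37.9, 14.2 and 5.63 FPKM in plpSC, against 2.82, 3.73 and 2.29 FPKM in priSG-B. Gm48275 (chr10:50425044-50425330) had 37.5, 11.1 and 5.15 FPKM in plpSC, against 3.04, 3.33 and 2.23 FPKM in priSG-B. In both of these short intergenic entries replicate 1 was highest, and neither passed in either comparison. 4930533N22Rik (chr7:75030194-75075164), named after its values were seen, had 13.8, 13.0 and 20.4 FPKM in plpSC, against 7.17, 7.91 and 6.37 FPKM in priSG-B. It passed in the 5-library comparison (0.82 ± 0.10, limma adjusted p = 0.0301), and replicate 3 was highest.

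Further loci, all named after their values were seen, were above priSG-B in all 3 plpSC libraries. Gm10505 (chr17:27325035-27344833) had 2.10, 1.96 and 4.32 FPKM in plpSC, against 0.101, 0.191 and 0.433 FPKM in priSG-B (5 libraries, 1.30 ± 0.14, limma adjusted p = 0.0246). Gm19412 (chr17:33919279-33920485), antisense to Tapbp, which loads peptides on class I molecules, had 9.42, 8.63 and 46.8 FPKM in plpSC, against 3.11, 4.13 and 4.22 FPKM in priSG-B (5 libraries, 1.06 ± 0.14, adjusted p = 0.033). Replicate 3 was the highest in both, by far in Gm19412. Gm47106 (chr9:105064805-105088286), antisense to the mitochondrial ribosomal gene Mrpl3, had 47.9, 21.9999 and 35.7 FPKM in plpSC, against 7.26, 8.42 and 6.14 FPKM in priSG-B, and passed in neither comparison (2.07 ± 0.59, limma adjusted p = 0.142).

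Replicate 3 also parted from the others among loci lower in replicates 1 and 2. Gm4419 (chr12:21417323-21421064), antisense to Ywhaq and named after its values were seen, had 3.21, 4.26 and 21.1 FPKM in plpSC, against 31.0, 29.8 and 33.5 FPKM in priSG-B (5 libraries, -2.78 ± 0.13, limma adjusted p = 0.00814). 1700097N02Rik (chr17:30622441-30626905), likewise named later, shares an exon with Glo1, a glyoxalase gene, on the same strand. It had 0.715, 1.03 and 98.4 FPKM in plpSC, against 3.92, 4.25 and 4.59 FPKM in priSG-B (5 libraries, -1.49 ± 0.11, limma adjusted p = 0.0147). Replicate 3 was near priSG-B in Gm4419 and far above it in 1700097N02Rik.

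The library labelled plpSC replicate 3 exceeded both other plpSC libraries by 1 log2 unit or more in 203 members (14.0%, beside 48% of the loci tested) and fell short of both by as much in 388 (26.8%, beside 11.8%). These counts became 56 and 921 with quantile normalization, and 87 and 925 with median centring. It was the highest of the 6 libraries in 358 members (24.8%, beside 61.5% of the loci tested) and the lowest in 780 (53.9%, beside 27.01%). By contrast, replicates 1 and 2 lay within 1 log2 unit of each other in 1308 members, and the priSG-B libraries in 1432.

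The members with the widest excess in replicate 3 were under 7 FPKM in each of the other 5 libraries. Rbakdn (chr5:143164779-143165751) had 0.0904, 0.749 and 608 FPKM in plpSC, against 0.545, 1.31 and 3.11 FPKM in priSG-B. Gm10501 (chr17:34976899-34981788), which shares an exon with the testis heat-shock gene Hspa1l on the other strand, had 0.993, 1.54 and 289 FPKM in plpSC, against 0.981, 1.10 and 0.978 FPKM in priSG-B. Gm50238 (chr17:28076418-28080295), which shares an exon with Tcp11, a gene of sperm, on the same strand, had 0, 0.959 and 233 FPKM in plpSC, against 1.44, 1.54 and 1.93 FPKM in priSG-B. Replicates 1 and 2 were at 1.54 FPKM or less at these loci, and replicate 3 alone was high. Gm2762, Gm11837, Gm36423, Kcnmb4os1 and Gm10638 followed, at 244, 389, 179, 153 and 115 FPKM in replicate 3 and at most 4.06 FPKM in the other plpSC libraries. In the wider series, pacSC replicates 1 and 2 held Rbakdn at 1183 and 1179 FPKM and elST replicate 2 held it at 654 FPKM, and Gm10501 was at 779 and 1033 FPKM in rST replicates 2 and 3.

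The members with the widest deficit in replicate 3 were clearly present in the other 5 libraries. Firre (chrX:50555744-50635321), an X-linked RNA that binds chromatin, had 24.1, 20.1 and 0.170 FPKM in plpSC, against 17.2, 17.1 and 12.2 FPKM in priSG-B. AU020206 (chr7:75769038-75782099) had 19.5, 16.7 and 0.141 FPKM in plpSC, against 7.82, 8.84 and 7.17 FPKM in priSG-B. Gm50321 (chr19:9828899-9836897) had 34.9, 25.5 and 0.908 FPKM in plpSC, against 9.90, 9.90 and 10.3 FPKM in priSG-B. In each, replicate 3 was under 1 FPKM and the other 5 libraries were over 7. AU020206 and Gm50321 were higher in replicates 1 and 2 in the 5-library comparison (limma adjusted p = 0.0257 and 0.0235). Gm45889 (chr7:142283210-142290418) had 33.9, 20.4 and 0.120 FPKM in plpSC, against 9.11, 11.9 and 7.55 FPKM in priSG-B, and Gm49709, whose span overlaps that of Gm49708, had 16.9, 18.6 and 0.0805 FPKM in plpSC, against 6.55, 8.56 and 6.15 FPKM in priSG-B (limma adjusted p = 0.0858 and 0.0333 in the 5-library comparison). Gm11008 (chr2:176097450-176100706) was lower in all, at 194, 137 and 4.44 FPKM in plpSC, against 880, 639 and 949 FPKM in priSG-B (5 libraries, -2.31 ± 0.28, limma adjusted p = 0.0291).

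**Figure D4:**
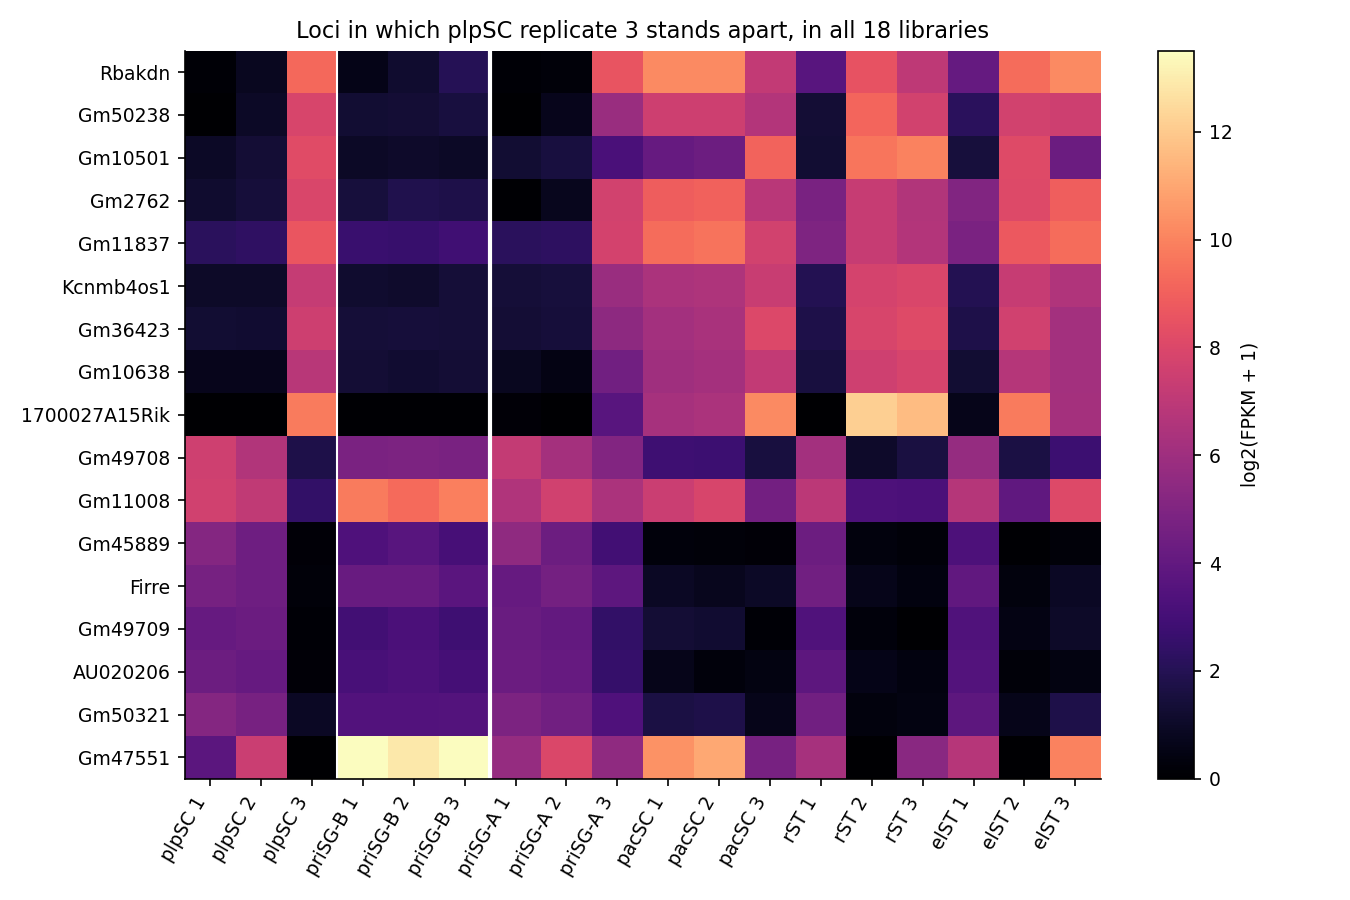
Log2(FPKM + 1) in all 18 libraries for 16 members in which plpSC replicate 3 stands apart and for 1700027A15Rik, which overlaps Tnp1. In the upper 9 rows plpSC replicate 3 is bright (874 FPKM for 1700027A15Rik) and plpSC replicates 1 and 2 are dark like priSG-B, and in the lower 8 rows replicate 3 is the darkest of the plpSC libraries.

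Small nucleolar RNA host genes, whose introns carry the guide RNAs of ribosomal RNA modification, had a median below that of all members in plpSC, most so in replicate 3. Of 22 names, 18 were members, on 20 rows. None passed over 18 libraries, and in the 5-library comparison 4 were lower (Epb41l4aos, Snhg15, Snhg17 and Snhg5) and 0 higher. The 4 are 20% of the rows, beside 13.3% of all members and 5.78% of the loci tested. The median log2 difference was -0.78 in replicates 1 and 2 and -2.17 in replicate 3, beside -0.08 and -0.70 over all members, and stayed below 0 with quantile normalization (-0.65 and -3.65) and median centring (-0.80 and -3.36). Replicates 1 and 2 both lay below priSG-B in 15 rows (75%, beside 39.0% of all members and 21.2% of the loci tested) and above in 2. Replicate 3 lay below in 19 (95%, beside 63.4% and 30.97%) and above in 1. Gas5, which is tied to growth arrest, had 92.5, 133 and 37.1 FPKM in plpSC, against 166, 166 and 177 FPKM in priSG-B. Snhg1 had 26.5, 45.5 and 2.04 FPKM in plpSC, against 90.0, 91.2 and 106 FPKM in priSG-B. Zfas1 had 16.4, 43.2 and 1.30 FPKM in plpSC, against 64.0, 59.8 and 70.4 FPKM in priSG-B. None of these 3 overlapped between the groups, and none passed, with replicate 1 well below replicate 2 in each. Snhg15 (chr11:6525591-6528779) had 6.01, 7.33 and 0.679 FPKM in plpSC, against 14.7, 15.3 and 14.1 FPKM in priSG-B (5 libraries, -1.04 ± 0.10, limma adjusted p = 0.0203). Snhg17 (chr2:158353700-158361580) had 7.32, 9.12 and 3.42 FPKM in plpSC, against 16.8, 17.5 and 16.8 FPKM in priSG-B (-0.98 ± 0.10, adjusted p = 0.0235). Epb41l4aos had 3.40, 6.97 and 4.77 FPKM in plpSC, against 26.7, 24.5 and 24.0 FPKM in priSG-B (-2.14 ± 0.30, adjusted p = 0.0373), and of the 4 it alone had replicate 3 between the other plpSC libraries. Snhg5 differed least of the 4 (-0.30 ± 0.05, adjusted p = 0.0416).

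**Figure D5:**
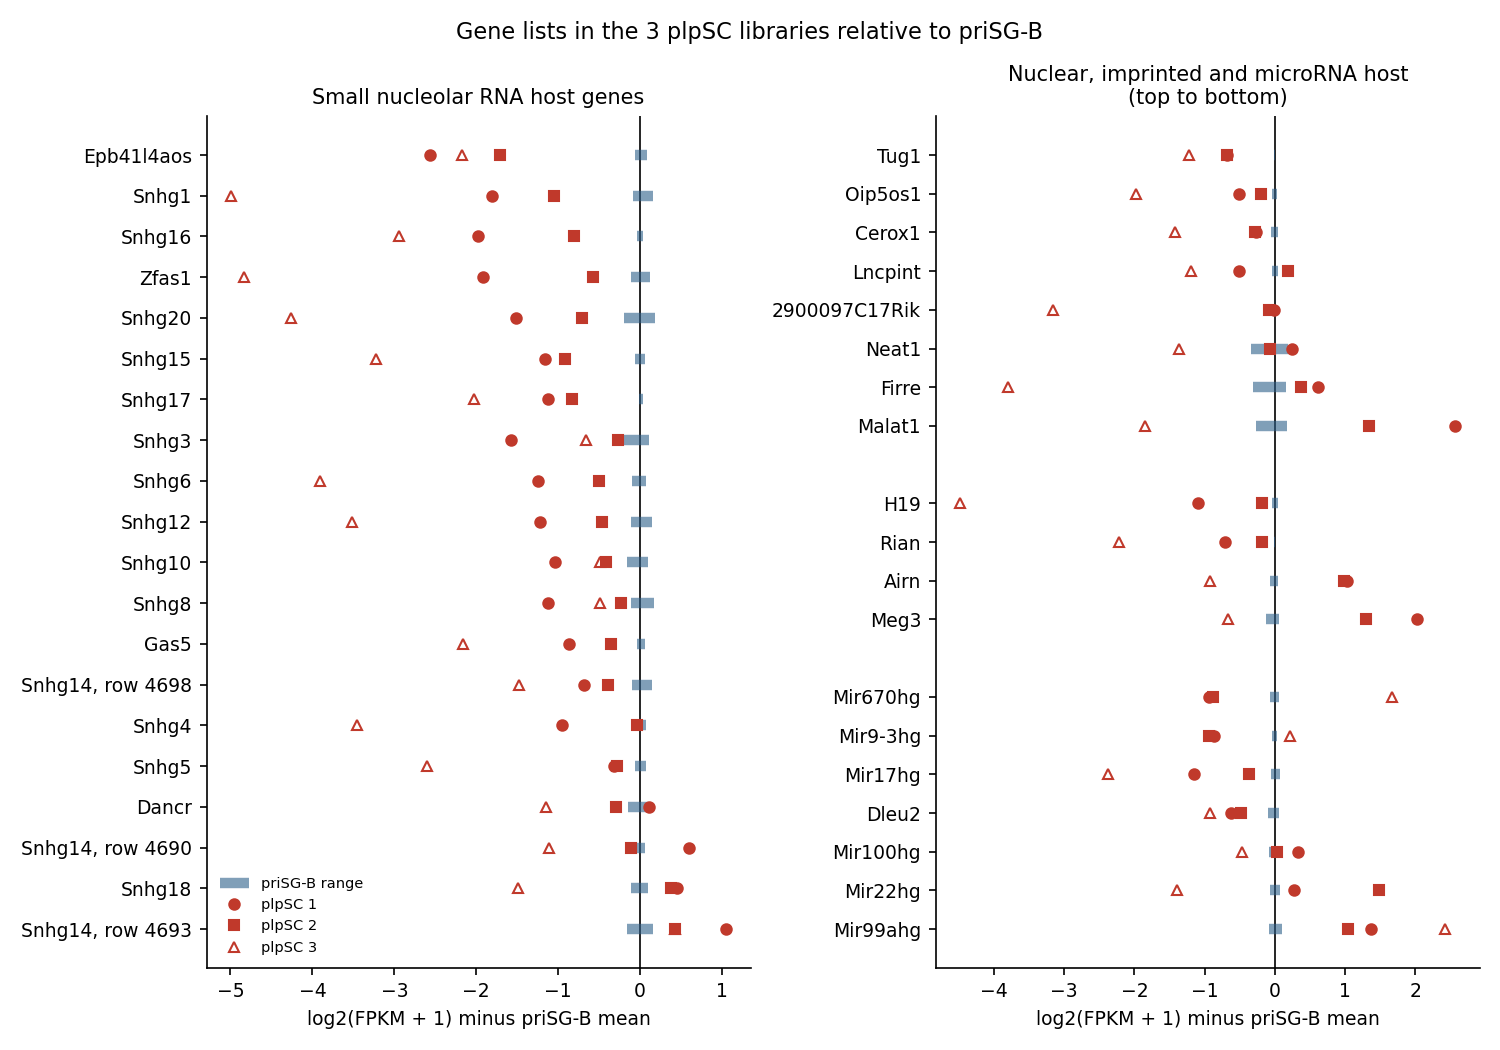
Log2(FPKM + 1) of each plpSC library minus the priSG-B mean for members of 4 gene lists, with plpSC replicates 1 and 2 filled, replicate 3 open, and the priSG-B range as a blue bar (the 3 entries of Snhg14 carry their row number in the deposited table). Replicate 3 lies left of the priSG-B range in 19 of 20 small nucleolar RNA host rows and in all 8 members of the nuclear list. The share over all members is 63.4%. Mir99ahg lies right of the priSG-B range in all 3 libraries.

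Of the noncoding genes of the X-inactivation centre, 7 were listed and 2 were members, Ftx and 5530601H04Rik. Ftx (chrX:103560907-103623790), which promotes Xist expression in mouse, had 3.09, 3.40 and 1.42 FPKM in plpSC, against 37.6, 34.0 and 42.7 FPKM in priSG-B. The groups were far apart and the plpSC libraries close together. It was lower with all libraries (-3.47 ± 0.61, limma adjusted p = 0.00799) and in the 5-library comparison (-3.20 ± 0.12, adjusted p = 0.00801). Over 18 libraries its call ended with the library-set term (-2.46, limma adjusted p = 0.148), a pseudocount of 0.1 (0.07), quantile normalization (0.0579) and without priSG-B replicate 3 (0.0663). 5530601H04Rik had 3.87, 6.69 and 0.273 FPKM in plpSC, against 8.74, 8.68 and 8.09 FPKM in priSG-B, and did not pass. The 28 X-linked members had a median log2 difference of -0.91 over 18 libraries, beside -0.18 over all members. Of the 28, 2 were lower and 0 higher, beside 3.53% lower of all members and 1.24% of the loci tested. Their medians were -0.29 in replicates 1 and 2 and -1.71 in replicate 3, beside -0.08 and -0.70 over all members. With quantile normalization the median in replicates 1 and 2 was -0.19, beside -0.11 over all members.

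Imprinted noncoding genes shared no direction in replicates 1 and 2. Of 16 names, 5 were members on 7 rows, with 0 lower and 0 higher over 18 libraries. In the 5-library comparison 0 were lower and 2 higher. The 2 are 28.6% of the rows, beside 10.03% of all members and 7.46% of the loci tested. Meg3 (chr12:109541001-109571726), expressed from the maternal chromosome, had 11.6, 6.66 and 0.947 FPKM in plpSC, against 2.24, 2.23 and 1.85 FPKM in priSG-B (5 libraries, 1.66 ± 0.26, limma adjusted p = 0.0451). Airn (chr17:12741311-12860136), the paternal antisense RNA that silences Igf2r, had 4.51, 4.36 and 0.420 FPKM in plpSC, against 1.73, 1.58 and 1.79 FPKM in priSG-B (5 libraries, 1.01 ± 0.04, adjusted p = 0.00801). Both were higher in replicates 1 and 2 and lowest in replicate 3. Rian, from the same cluster as Meg3, had 8.32, 12.4 and 2.28 FPKM in plpSC, against 14.2, 14.3 and 14.4 FPKM in priSG-B. H19 had 15.3, 29.6 and 0.562 FPKM in plpSC, against 33.7, 32.7 and 34.8 FPKM in priSG-B. Rian and H19 lay below priSG-B in every plpSC library and did not pass. Meg3, Rian and H19 are also on the somatic marker list, whose sum is given above.

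Of 17 names listed as RNAs of nuclear bodies and chromatin, 8 were members. Replicate 3 lay below priSG-B in all 8, beside 63.4% of all members and 30.97% of the loci tested. None passed over 18 libraries. In the 5-library comparison 2 were lower (25%, beside 13.3% of all members and 5.78% of the loci tested). The median of the 8 in replicates 1 and 2 was -0.11, and 0.09 after quantile normalization. Tug1 (chr11:3639785-3649673), which male mice need for fertility and whose exons overlap Morc2a on the other strand, had 22.6, 22.6 and 15.3 FPKM in plpSC, against 37.0, 36.6 and 37.1 FPKM in priSG-B. Both groups were tight but for replicate 3, which was the lowest. Tug1 was lower in replicates 1 and 2 (-0.68 ± 0.02, limma adjusted p = 0.00379), and did not pass over 18 libraries (adjusted p = 0.671). Cerox1 is on this list although it acts on mitochondrial complex I. It had 1.34, 1.32 and 0.0583 FPKM in plpSC, against 1.72, 1.82 and 1.92 FPKM in priSG-B (5 libraries, -0.28 ± 0.04, limma adjusted p = 0.032). Malat1, of nuclear speckles, had 3183, 1361 and 149 FPKM in plpSC, against 571, 605 and 448 FPKM in priSG-B. Neat1, the scaffold of paraspeckles, had 8.99, 6.97 and 2.28 FPKM in plpSC, against 8.61, 8.27 and 5.65 FPKM in priSG-B. Neither passed: Malat1 was above priSG-B in replicates 1 and 2 alone, and Neat1 overlapped priSG-B there. 2900097C17Rik was nearly equal in 5 libraries, with 38.8, 36.9 and 3.51 FPKM in plpSC, against 39.2, 39.2 and 39.1 FPKM in priSG-B.

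MicroRNA host transcripts were measured as such, and their microRNAs were not. Of 25 names, 7 were members, with none called over 18 libraries. In the 5-library comparison 3 were lower (42.9%, beside 13.3% of all members and 5.78% of the loci tested). There 1 was higher (14.3%, beside 10.03% and 7.46%). Mir99ahg (chr16:77236317-77773427) had 8.59, 6.64 and 19.04 FPKM in plpSC, against 3.01, 2.67 and 2.499 FPKM in priSG-B (5 libraries, 1.20 ± 0.13, limma adjusted p = 0.0265). All 3 plpSC libraries lay above priSG-B, and replicate 3 was highest. Mir99ahg and Mir100hg are on the somatic marker list too, whose members shared no direction in replicates 1 and 2. There Meg3 was above priSG-B, as was the peritubular marker Carmn, whereas H19 and Rian were below it and Mir100hg overlapped it. In replicate 3, Carmn, Meg3, H19, Rian and Mir100hg were all below priSG-B. Mir9-3hg (chr7:79500026-79534403) had 1.79, 1.65 and 4.90 FPKM in plpSC, against 3.94, 4.09 and 4.20 FPKM in priSG-B (5 libraries, -0.90 ± 0.04, adjusted p = 0.00801). Mir670hg (chr2:94160636-94264918) had 0.510, 0.570 and 8.18 FPKM in plpSC, against 2.04, 1.91 and 1.76 FPKM in priSG-B (-0.91 ± 0.05, adjusted p = 0.0105). In these 2, replicate 3 lay above priSG-B while replicates 1 and 2 lay below. Dleu2 (chr14:61602839-61682373), host of the pair with the shared seed, had 9.42, 10.5 and 7.51 FPKM in plpSC, against 15.8, 15.4 and 14.1 FPKM in priSG-B (-0.55 ± 0.08, adjusted p = 0.035), with all 3 plpSC libraries below priSG-B. Mir17hg, host of the miR-17 cluster, had 1.44, 3.16 and 0.0349 FPKM in plpSC, against 4.36, 4.18 and 4.65 FPKM in priSG-B, and did not pass. Mir22hg had 5.72, 14.6 and 1.13 FPKM in plpSC, against 4.30, 4.55 and 4.88 FPKM in priSG-B, and Mir100hg was between 0.532 and 1.67 FPKM in plpSC and between 1.00 and 1.23 FPKM in priSG-B.

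Of 14 noncoding genes listed as studied in germ cells, 7 were members, with none called over 18 libraries. The list was chosen with earlier results of these data known, and it holds Gm47551, Gm49708 and Gm45889. Its counts are therefore no independent support. Replicate 3 lay below priSG-B in all 7, beside 63.4% of all members and 30.97% of the loci tested. In the 5-library comparison Tug1 and Gm47551 were lower (28.6%, beside 13.3% of all members and 5.78% of the loci tested). Meg3 and Gm49708 were higher (28.6%, beside 10.03% and 7.46%). Gm2044 (chr7:139957005-139958039) had 19.5, 4.09 and 0 FPKM in plpSC, against 13.5, 14.3 and 16.3 FPKM in priSG-B. Its replicates 1 and 2 lay on either side of priSG-B, so that no direction was shared by the plpSC libraries. The most abundant other members, Gm10076 and Gm28967, also did not pass. Gm10076 had 786, 2040.25 and 1476 FPKM in plpSC, against 3542, 3438 and 3933 FPKM in priSG-B, without overlap. Gm28967, in Ncapd2, had 4168, 2267 and 659 FPKM in plpSC, against 2320.45, 1983 and 2579 FPKM in priSG-B, where the groups overlapped.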

How the data were processed

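The submitters' processing notes name the tools HISAT2 and StringTie and the build mm10, without versions. The authors deposited FPKM for 13218 loci in 18 libraries. What annotation, strand setting of the counting, low-value filters and scaling total went into these values is not given in the sources used here. GENCODE M21 (GRCm38) matched 13191 identifiers, and positions count from 1 on that build. Steps between low FPKM gave the depth. Of these steps, 96.9 to 97.9% came out whole within 0.02 in the 6 libraries. Such depth bears only on counting error.

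Values were tested as log2(FPKM + 1), a scale that understates changes of low loci, with limma 3.58.1 (R 4.3.3, trend and robust). Loci with at least 1 FPKM in at least 3 of the 18 libraries entered (4117), with 1 coefficient per type and Benjamini-Hochberg adjustment at 0.05. A second fit used 5 libraries, without plpSC replicate 3. The scripts were tested on simulated data. The members and lists were chosen with earlier results of these data known. Named were up to 8 loci each way with the largest differences in the 18-library fit, the widest gap of replicates 1 and 2 from priSG-B, or the widest gap of replicate 3 from both, the 8 most abundant, and list members by mean FPKM. Some loci that the rule names are not reported here. Loci outside it are said to be named after their values were seen. Shared replicate numbers did not pair the samples.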

Additional observations from a re-analysis of the deposited data

How the results depend on the processing

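All alternatives refer to the members. The 51 lower loci and the 1 higher locus became 1 and 1 with a pseudocount of 0.1, 20 and 3 with the 6 libraries alone, 193 and 145 when plpSC replicate 3 was left out as well, 22 and 1 with median centring, 39 and 1 with quantile normalization, 67 and 4 without the low-value filter, 20 and 1 with a filter of 5 FPKM (675 members left), 47 and 4 without trend and robust estimation, 15 and 3 with a term for the 2 library sets, and, chosen after seeing the data, 111 and 20 with the members alone in the fit. Leaving out 1 library at a time gave 20 to 60 lower loci, 1 to 2 higher loci and medians of -0.31 to -0.08. The replicate numbers did not pair the samples (correlations of deviations 0.0836, 0.0826 and 0.183), and with the replicate block 58 loci were lower and 1 was higher. The median log2 difference of -0.18 became -0.61 with quantile normalization and -0.59 with median centring, and was 0.01 with the library-set term and 0.02 with the 5 FPKM filter. The following were chosen after seeing the data. The 193 lower and 145 higher loci of the 5-library comparison became 163 and 134 with a pseudocount of 0.1, 211 and 143 with quantile normalization, 203 and 156 without trend and robust estimation, 370 and 250 with median centring and 395 and 310 with the members alone, and leaving out 1 library gave 0 to 29 lower and 0 to 18 higher. The 203 members over and 388 under both other plpSC libraries in replicate 3 became 237 and 622 with a pseudocount of 0.1, 56 and 921 with quantile normalization, and 87 and 925 with median centring. At 5 FPKM the mean number of loci per library differed by 274 between plpSC and priSG-B, with an exact permutation p of 1, and by -32.8 without plpSC replicate 3 (exact p = 0.2). The difference of 585 loci at 1 FPKM was 168.5 without that library. AY036118 defines the library sets, so it has no value with their term. Gm49708 turned to -0.63 and -0.15 without plpSC replicates 1 and 2, and stood at 2.27 without replicate 3. Of 17 alternatives, the call was lost in 9 for Gm42687, Gm43461 and Gm45184, in 8 for Gm12953 and Gm48610, in 4 for Ftx, in 2 for Gm37214 and in 1 for BC051077, Gm38973 and, of 16, Gm15541. Limma adjusted p over them was 0.00743 to 0.583 for Gm42687, 0.00197 to 0.301 for Gm43461, 0.00296 to 0.375 for Gm45184, 0.00314 to 0.416 for Gm12953 and 0.00202 to 0.303 for Gm48610. For Rmrp every alternative keeps the listed zeros of priSG-B, so its call is no sign of stability. The causes of these changes were not tested. Depth of 34.8 to 47.4 M (mega) fragments in plpSC replicates 1 and 2 limits low loci there more than in the other 4 libraries.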
